A study of Mus musculus with 6 samples.

Results

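The 10 genes described here encode enzymes that oxidise alcohols and aldehydes or use the acetate that results: the alcohol dehydrogenase genes Adh1, Adh4, Adh5 and Adh7, the aldehyde dehydrogenase genes Aldh1a1, Aldh1a2, Aldh1a3, Aldh2 and Aldh3a2, and the acetyl-CoA synthetase gene Acss2. Their methylated regions were taken from lists of DNA methylation peaks as every peak whose annotated gene was one of the 10, in any class of position. This gave 62 peaks of 148832, which merged to 20 regions of 48853, and all 10 genes had at least 1 peak among the 13142 genes that had any. The samples were hippocampi of male C57BL/6 mice at postnatal day 21. Of these, 3 came from pups given 2 subcutaneous injections of ethanol (2.5 g/kg in 0.15 M NaCl) on each of postnatal days 4 and 7, and 3 from littermate pups given 0.15 M saline on the same schedule. In MeDIP-seq, fragments carrying 5-methylcytosine are captured by an antibody before sequencing, and a peak marks a stretch where reads piled up above the local background. Whole hippocampus holds many cell types, so that methylation in fewer cells and lighter methylation in every cell cannot be told apart. Peak lists hold no expression values, and the tissue was therefore not checked against marker genes.

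Ethanol is oxidised to acetaldehyde by alcohol dehydrogenases, and acetaldehyde is oxidised to acetate, chiefly by the mitochondrial enzyme that Aldh2 encodes. Acss2 turns acetate into acetyl-CoA, which also feeds histone acetylation in neurons. Several of these enzymes have a second role in vitamin A metabolism: alcohol dehydrogenases can oxidise retinol, and the products of Aldh1a1, Aldh1a2 and Aldh1a3 make retinoic acid, a signal that patterns the developing nervous system. The alcohol dehydrogenases best known for clearing ethanol are abundant in liver and stomach and scarce in brain, where catalase and Cyp2e1 also oxidise ethanol.

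The ethanol lists held 23141, 34904 and 28386 peaks, against 18922, 22703 and 20776 in the saline lists. The lists carry no read totals, and the lowest local background, a stand-in for relative depth, was 2.16, 2.33 and 2.34 tags in ethanol libraries and 1.85, 2.65 and 2.02 tags in saline libraries. Every ethanol list was thus longer than every saline list, and counts of peaks are given beside that difference.

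The sequences that carry the results are shown first, on mm10 (GRCm38, sequence from RefSeq) and on the strand of the gene, with each CpG in capitals. The antibody captures whole fragments, so the assay does not show which cytosines of a window were methylated, in CpG or elsewhere. The first pair are the only regions classed as promoter, the next 4 are the regions with a peak in all 6 libraries, then come 2 regions with a peak in ethanol replicates 2 and 3 only, and the last is a CpG-rich promoter with no peak, for contrast. Windows were 300 bases around the summit, shortened where they reached bases of an exon that is not coding. The names intronic and exonic give the place of the median summit only, and a window can run into a neighbouring feature. For the first pair, promoter is the authors' class of the peak. In the Adh7 promoter region 146 bases were dropped, and the 154 bases printed all lie downstream of the annotated start.
Adh7 promoter region (chr3:138217891-138218044, plus strand): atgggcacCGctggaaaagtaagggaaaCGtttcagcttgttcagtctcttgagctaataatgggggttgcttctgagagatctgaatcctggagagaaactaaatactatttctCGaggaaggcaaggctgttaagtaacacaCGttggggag
Adh4 promoter region (chr3:138414012-138414311, plus strand): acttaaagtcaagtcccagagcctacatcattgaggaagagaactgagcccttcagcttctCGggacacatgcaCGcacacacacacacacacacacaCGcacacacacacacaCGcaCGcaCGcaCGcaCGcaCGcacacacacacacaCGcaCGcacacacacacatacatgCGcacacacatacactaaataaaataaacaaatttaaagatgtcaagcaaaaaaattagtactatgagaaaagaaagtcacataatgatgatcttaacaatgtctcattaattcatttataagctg
Adh5 upstream region (chr3:138435913-138436212, plus strand): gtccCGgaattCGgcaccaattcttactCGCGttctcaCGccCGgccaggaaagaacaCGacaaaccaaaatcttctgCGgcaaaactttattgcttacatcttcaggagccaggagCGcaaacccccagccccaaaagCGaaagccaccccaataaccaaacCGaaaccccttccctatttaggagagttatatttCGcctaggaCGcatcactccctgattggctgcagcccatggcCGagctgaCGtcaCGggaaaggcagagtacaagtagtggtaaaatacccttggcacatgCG
Adh7 distal region (chr3:138206234-138206533, plus strand): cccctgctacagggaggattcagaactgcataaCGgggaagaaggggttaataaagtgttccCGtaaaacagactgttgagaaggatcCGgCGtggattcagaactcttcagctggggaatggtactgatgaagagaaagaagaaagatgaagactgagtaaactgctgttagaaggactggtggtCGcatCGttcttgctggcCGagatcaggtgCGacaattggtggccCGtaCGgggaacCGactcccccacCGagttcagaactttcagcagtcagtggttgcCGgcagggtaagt
Aldh1a2 first intronic region (chr9:71240898-71241197, plus strand): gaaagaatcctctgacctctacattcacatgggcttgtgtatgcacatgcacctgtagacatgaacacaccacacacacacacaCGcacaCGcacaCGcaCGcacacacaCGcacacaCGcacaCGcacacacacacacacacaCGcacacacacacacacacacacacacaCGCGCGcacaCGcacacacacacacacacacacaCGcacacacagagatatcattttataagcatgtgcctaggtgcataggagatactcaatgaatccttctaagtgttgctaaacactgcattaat
Aldh1a2 second intronic region (chr9:71261491-71261790, plus strand): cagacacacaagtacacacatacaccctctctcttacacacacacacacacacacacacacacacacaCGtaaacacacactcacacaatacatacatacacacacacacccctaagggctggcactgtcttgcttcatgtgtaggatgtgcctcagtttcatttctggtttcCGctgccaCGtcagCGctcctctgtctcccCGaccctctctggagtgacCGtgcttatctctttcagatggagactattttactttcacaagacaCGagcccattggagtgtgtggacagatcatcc
Aldh2 exonic region (chr5:121576371-121576670, minus strand): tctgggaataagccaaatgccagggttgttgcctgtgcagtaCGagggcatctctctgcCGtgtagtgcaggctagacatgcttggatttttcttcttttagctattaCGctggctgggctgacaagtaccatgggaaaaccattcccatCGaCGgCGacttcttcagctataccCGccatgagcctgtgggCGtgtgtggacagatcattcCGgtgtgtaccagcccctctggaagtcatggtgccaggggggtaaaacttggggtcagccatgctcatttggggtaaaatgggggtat
Aldh1a2 near-upstream region (chr9:71212434-71212618, plus strand): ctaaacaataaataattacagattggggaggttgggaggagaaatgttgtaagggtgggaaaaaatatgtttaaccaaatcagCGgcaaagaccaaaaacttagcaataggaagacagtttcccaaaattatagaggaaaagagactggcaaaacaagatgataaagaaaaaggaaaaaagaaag
Aldh1a2 promoter without a peak (chr9:71215539-71215788, plus strand): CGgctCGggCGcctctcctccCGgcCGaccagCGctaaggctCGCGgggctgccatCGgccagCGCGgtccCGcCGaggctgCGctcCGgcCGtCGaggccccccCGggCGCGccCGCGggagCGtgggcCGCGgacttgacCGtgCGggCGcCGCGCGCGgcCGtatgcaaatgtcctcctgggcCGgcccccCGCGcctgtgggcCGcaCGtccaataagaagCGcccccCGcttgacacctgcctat
The windows of the Adh4 promoter region and of both intronic Aldh1a2 regions contain long runs of alternating c and a, and hold 12, 13 and 7 CpG. The windows of the Adh5 upstream region and the Adh7 distal region hold 17 and 13 CpG. The Aldh2 window holds 9, and the near-upstream window of Aldh1a2 holds 1 CpG in 185 bases. CpG occurred in 94.4% of the 300-base windows around the summits of all regions, with a median of 8 per window.

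**Figure D1:**
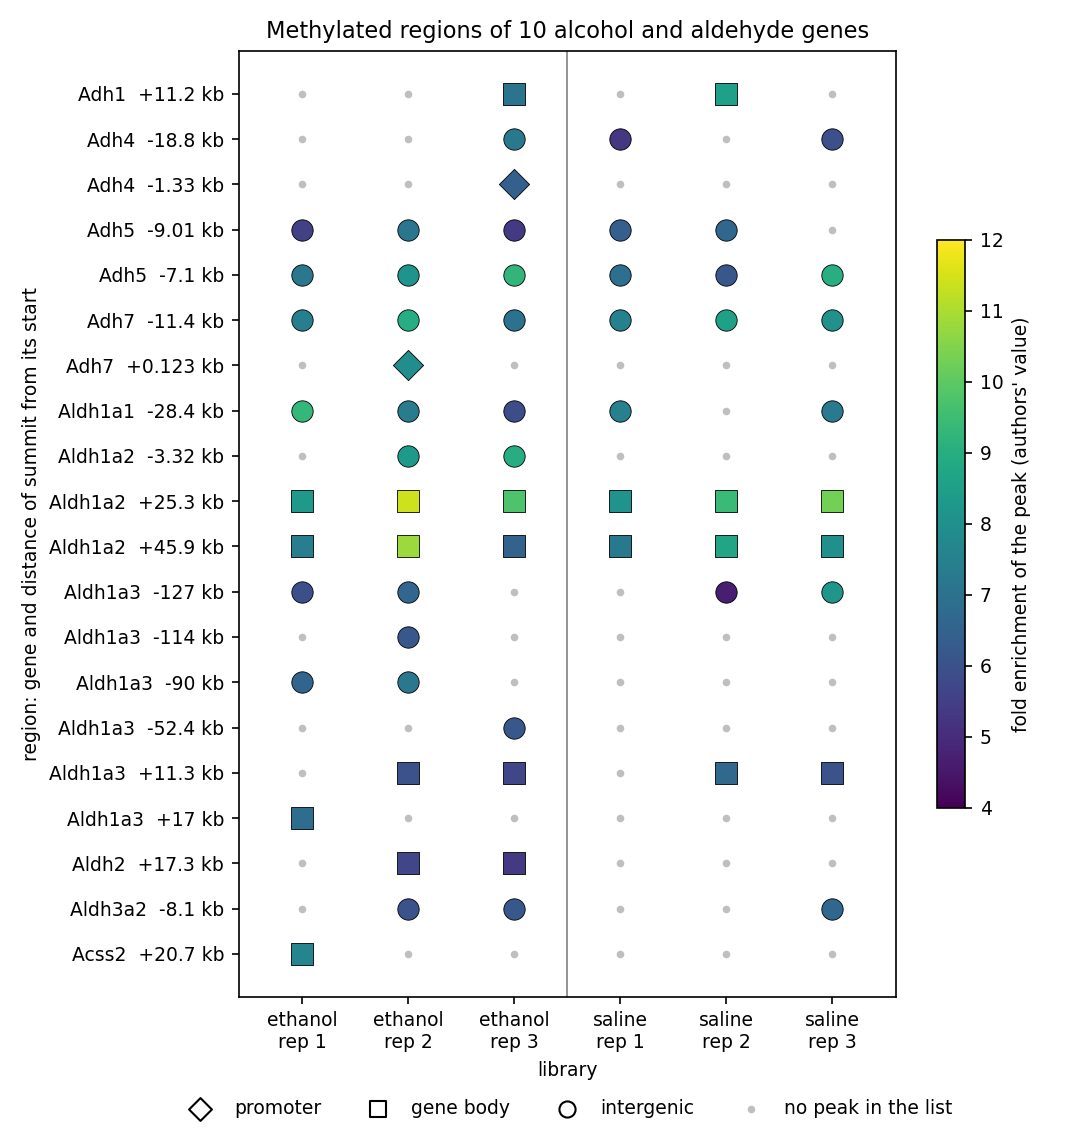
Presence of a peak in each of the 20 regions (rows, with gene and distance in kb of the summit from the transcription start) in each library (columns). Symbols give the class of the peak, colours its fold enrichment and small grey dots the absence of a peak from the list; 4 rows are filled across all 6 libraries, and no row is filled in every library of 1 treatment and empty in the other.

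By the authors' annotation, the peaks of these genes lay mainly upstream of the genes and rarely at the annotated starts. Of the 62 peaks, 38 were intergenic, 22 were in gene bodies and 2 were in promoters, or 61.3%, 35.5% and 3.23%, against 72.7%, 24.2% and 3.05% of all peaks. All 38 intergenic peaks lay upstream of the start of their gene, against 60% of all intergenic peaks, and at a median of 11.4 kb from it, against 78.1 kb. These peaks belong to only 11 regions, so that the shares rest on few independent positions. Longer transcripts place the Aldh1a1 region and, in RefSeq, the distal Adh7 region in introns of these genes, as given below. The median fold enrichment, the authors' ratio of the summit to its local background, was 7.19 for these peaks and 7.5 for all peaks. Ranked by q within their own list, the 62 peaks had a median percentile of 40.6, from 0.775 to 86.9.

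The alcohol dehydrogenase genes lie head to tail in a cluster of 238 kb on chromosome 3, in the order Adh7, Adh1, Adh6a, Adh6b, Adh4, Adh5. Peaks annotated to the 4 members numbered 3, 4 and 6 in ethanol replicates 1 to 3 and 4, 4 and 3 in saline replicates 1 to 3. These numbers overlap between the treatments. They formed 7 regions, of which the nearer of the 2 Adh5 regions and the distal one of Adh7 were found in all 6 libraries.

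Adh5 encodes the class III enzyme, which clears formaldehyde with glutathione and is the alcohol dehydrogenase expressed most widely across tissues. It had 2 regions, both upstream of its annotated start (NM_007410) and both beyond the end of Adh4. The nearer region (chromosome 3, 138435760 to 138436377) had summits 7048 to 7164 bp upstream. Its summit pileup was 51, 70 and 68 tags in ethanol replicates 1, 2 and 3, against 48, 46 and 56 tags in saline replicates 1, 2 and 3. The ranges overlap, since ethanol replicate 1 lies below saline replicate 3. Its fold enrichment was 7.18, 8.13 and 9.22 in the ethanol lists and 6.86, 6.16 and 9.01 in the saline lists. In the RefSeq annotation of GRCm38 a second coding transcript of Adh5 (NM_001288578) starts nearer to this region, and the median summit lies 1137 bp upstream of that start. By the distance that sets the promoter class, 2000 bp, the region would count as an Adh5 promoter region under that transcript, while the authors' annotation makes it intergenic.

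The farther Adh5 region (chromosome 3, 138433799 to 138434408), with summits 8977 to 9073 bp upstream, was listed in every library except saline replicate 3. Its pileup was 39, 61 and 38 tags in the ethanol libraries and 45 and 50 tags in saline replicates 1 and 2. Both Adh5 regions were dense in CpG, with 5.5 and 4.59 per 100 bp, as high as or higher than 96.5% and 91.1% of all regions, and 86.7% and 99.8% of their bases were soft-masked, the mark of repeat-derived sequence. The 300 bases around the start of NM_007410 hold 26 CpG and those around the start of NM_001288578 hold 3, and neither window overlapped a peak in any library.

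Adh7 encodes the class IV enzyme, best known as a retinol and ethanol dehydrogenase of epithelia such as the stomach lining. Its distal region (chromosome 3, 138205941 to 138206765) had summits 11376 to 11403 bp upstream of NM_009626, within 27 bp of each other in all 6 libraries. Summit pileup was 65, 80 and 56 tags in ethanol replicates 1, 2 and 3, against 38, 77 and 60 tags in saline replicates 1, 2 and 3. The lowest value was in a saline library and the highest in an ethanol library, with the others interleaved. Fold enrichment was 7.4, 8.94 and 6.99 in the ethanol lists and 7.47, 8.56 and 8 in the saline lists. The region is 99.2% soft-masked, and in RefSeq it lies in an intron of a predicted longer Adh7 transcript (XM_006500919), where GENCODE has no gene.

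The promoter peak of Adh7 (chromosome 3, 138217639 to 138218124) was found in ethanol replicate 2 alone, with a pileup of 30 tags, a fold of 7.89 and its summit 123 bp downstream of the start. The summit is in a coding exon, where Adh7 overlaps the gene 0610031O16Rik in both annotations, and none of the region is soft-masked. The other 5 libraries had no peak nearer than the distal region, 10.9 to 11 kb away. The promoter window of Adh7 is poor in CpG, with 3 in 300 bases, and 76.7% of the 32851 promoter windows in the RefSeq table hold as many or more.

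Adh4 encodes the class II enzyme, active on ethanol at high concentration and on retinol. Its promoter peak (chromosome 3, 138413949 to 138414428) was found in ethanol replicate 3 alone, 1334 bp upstream of the start, with a pileup of 44 tags and a fold of 6.43. A second Adh4 region (chromosome 3, 138396370 to 138397001), 18.8 kb upstream, had a pileup of 25 tags in ethanol replicate 3, against 20 and 23 tags in saline replicates 1 and 3. It was the only region of the 20 found in fewer ethanol than saline libraries. It is wholly soft-masked and among the richest in CpG, with 6.17 per 100 bp.

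Adh1 encodes the class I enzyme, the main ethanol dehydrogenase of liver. Its single region (chromosome 3, 138288651 to 138289221) lies 11.2 kb inside the gene, in a coding exon where GENCODE also has the gene Gm16559. It had a pileup of 34 tags in ethanol replicate 3 and 37 tags in saline replicate 2, and no peak in the other 4 libraries.

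**Figure D2:**
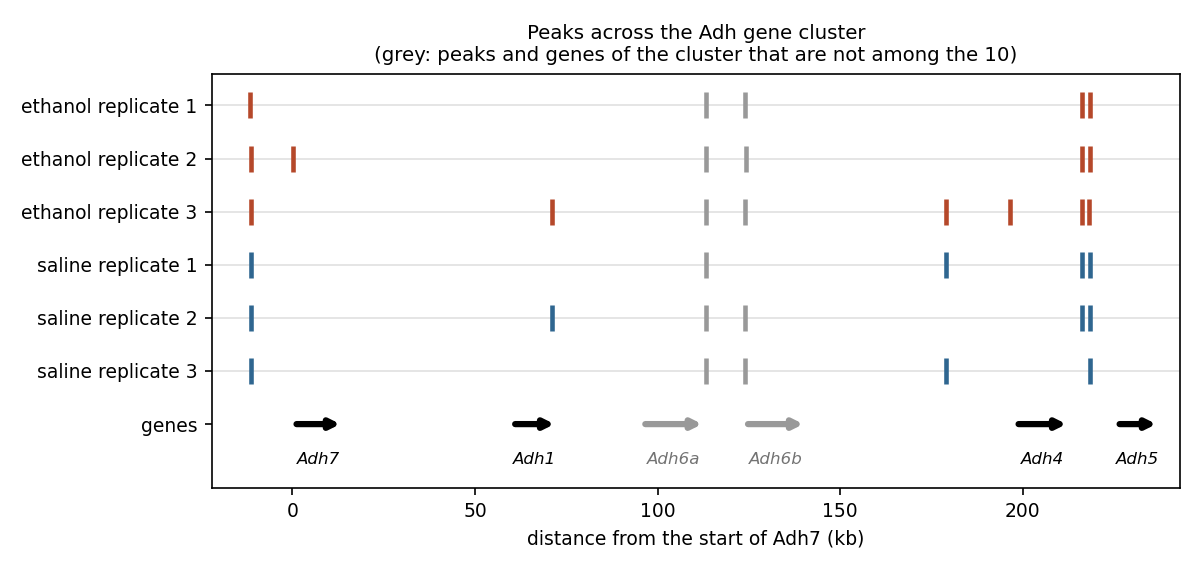
Peaks in each library across the alcohol dehydrogenase cluster, by distance in kb from the start of Adh7; arrows show the genes and their direction. The columns of marks 11.4 kb before Adh7 and 7.1 kb before Adh5 run through all 6 libraries, while the marks at Adh1, at the start of Adh7 and just before Adh4 are in 1 or 2 libraries.

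The retinaldehyde dehydrogenase genes held 10 of the 20 regions, and 2 of these, both in Aldh1a2, were found in every library. Aldh1a2, also known as Raldh2, is the main source of retinoic acid in the early embryo and is expressed in the meninges. Its first intronic region (chromosome 9, 71240827 to 71241433), 25.3 kb from the start, had a pileup of 36, 62 and 44 tags in ethanol replicates 1, 2 and 3, against 34, 50 and 40 tags in saline replicates 1, 2 and 3. Fold enrichment was 8.3, 11.4 and 9.78 in the ethanol lists and 8.12, 9.42 and 10.3 in the saline lists, and 11.4 was the highest fold at any of the 10 genes. The ranges of pileup overlap.

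The second intronic region of Aldh1a2 (chromosome 9, 71261252 to 71262029), 45.9 kb from the start, had a pileup of 30, 55 and 27 tags in ethanol replicates 1, 2 and 3, against 25, 42 and 33 tags in saline replicates 1, 2 and 3. Again ethanol replicate 2 stood above the rest. Pileup is not scaled to depth here, and this library also had the highest median over regions shared by all 6 libraries, 69.5 tags. Scaled values are given below. The remaining region of Aldh1a2 (chromosome 9, 71212218 to 71212801), 3286 to 3351 bp upstream, had a pileup of 42 tags in each of ethanol replicates 2 and 3, with folds of 8.31 and 8.97, and no peak in the other 4 libraries. The nearest peak in these was 28 to 28.1 kb away. In RefSeq the region lies in an intron of the gene Gm3458. The promoter window of Aldh1a2 holds 50 CpG in 300 bases, a number reached by 0.855% of promoter windows, and no library had a peak on it.

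Aldh1a3, which makes retinoic acid in the eye and the forebrain of the embryo, had the most regions of the 10 genes. Of its 6 regions, 2 were in the gene body and 4 were spread from 52.4 to 127 kb upstream, and the number of regions was at percentile 84.9 of all genes with a peak. The gene had 3, 4 and 2 peaks in ethanol replicates 1 to 3, against 0, 2 and 2 in saline replicates 1 to 3. None of its regions was found in more than 4 libraries. The region 11.3 kb inside the gene (chromosome 7, 66415910 to 66416521) had a pileup of 43 and 46 tags in ethanol replicates 2 and 3, against 49 and 37 tags in saline replicates 2 and 3. The most distant region (chromosome 7, 66554494 to 66555337) had 22 and 25 tags in ethanol replicates 1 and 2, against 20 and 28 tags in saline replicates 2 and 3. The region 90 kb upstream (chromosome 7, 66517066 to 66517708) had 27 and 28 tags in ethanol replicates 1 and 2 only, with 0.467 CpG per 100 bp, the lowest density of the 20. The other 3 regions were each found in a single ethanol library.

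Aldh1a1, whose enzyme is abundant in midbrain dopamine neurons and oxidises retinaldehyde and other aldehydes, had 1 region (chromosome 19, 20573188 to 20573867). The summits lay 28357 to 28398 bp upstream of NM_013467. Pileup was 33, 34 and 22 tags in ethanol replicates 1, 2 and 3, against 25 and 30 tags in saline replicates 1 and 3, and saline replicate 2 had no peak there, its nearest being 113 kb away. Both GENCODE and RefSeq place this region in an intron of longer Aldh1a1 transcripts, where the authors' annotation has it as intergenic. Neither of the RefSeq promoter windows of Aldh1a1, with 3 and 1 CpG, overlapped a peak.

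The enzymes that clear acetaldehyde and fatty aldehydes and that use acetate had 1 region each. Aldh2 had 1 region (chromosome 5, 121576246 to 121576769), in a coding exon 17.3 kb from the start, with a pileup of 51 and 43 tags in ethanol replicates 2 and 3. Ethanol replicate 1 and the 3 saline libraries had no peak there, and their nearest peak was 55.6 to 55.7 kb away. The fold in the 2 ethanol lists was 5.68 and 5.33, below the median of all peaks. Aldh3a2, which encodes a fatty aldehyde dehydrogenase of the endoplasmic reticulum, had a region (chromosome 11, 61274940 to 61275473) 8060 to 8137 bp upstream. It had a pileup of 43 and 38 tags in ethanol replicates 2 and 3, against 31 tags in saline replicate 3. Acss2 had a single peak, intronic and wholly soft-masked, in ethanol replicate 1 (chromosome 2, 155538488 to 155538967), with a pileup of 25 tags and a fold of 7.65. The promoter windows of Acss2 and Aldh3a2 hold 20 and 21 CpG, and no library had a peak on them.

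Across the 10 genes, more peaks were listed after ethanol than after saline, but not when the lists were cut to the same length. The libraries had 10, 14 and 14 peaks at these genes in ethanol replicates 1 to 3, or 12.7 ± 2.31 (SD, n = 3), and 7, 8 and 9 in saline replicates 1 to 3, or 8 ± 1 (SD, n = 3). The treatments did not overlap and the ratio was 1.58, while the lists as a whole were 1.39 times as long after ethanol, again without overlap. As a share of all peaks the 10 genes took 0.0432%, 0.0401% and 0.0493% in the ethanol lists, against 0.037%, 0.0352% and 0.0433% in the saline lists, which overlap. With each list cut to its 18922 most significant peaks, the length of the shortest, the counts were 7, 7 and 7 in ethanol libraries and 7, 7 and 8 in saline libraries. No p-value is given for these sums, because the genes were chosen with earlier results of these data known. The smallest p that 3 against 3 libraries can give is 0.1.

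**Figure D3:**
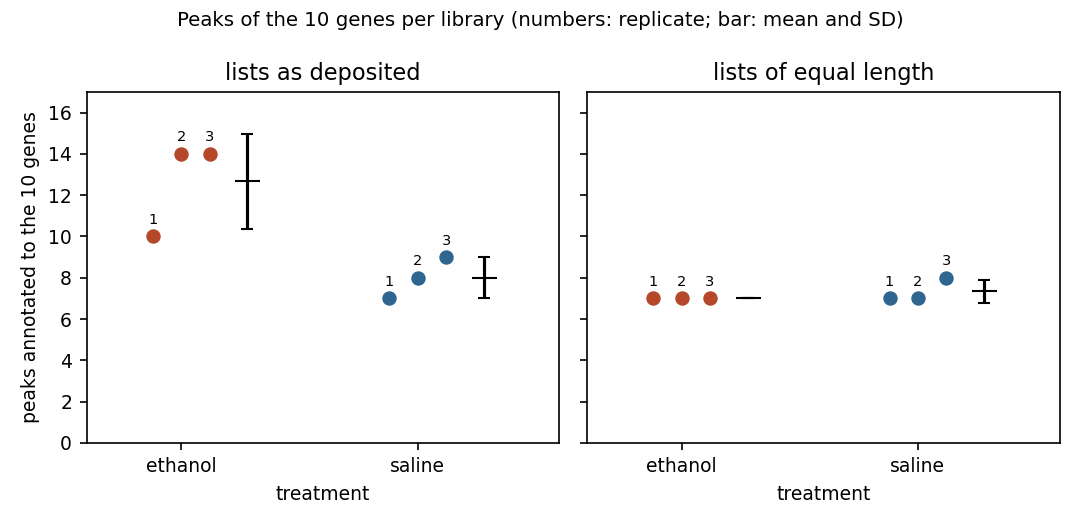
Peaks annotated to the 10 genes in each library, in the lists as deposited (left) and in lists cut to 18922 peaks (right); points are libraries numbered by replicate, and bars show the mean and SD. The ethanol libraries have 10 to 14 peaks and the saline libraries 7 to 9 on the left, and 7 against 7 to 8 on the right.

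By gene, 5 of the 10 had a peak in more ethanol than saline libraries, namely Aldh1a1, Aldh1a3, Aldh2, Aldh3a2 and Acss2, and Adh4 alone had it in fewer. Adh5, Adh7 and Aldh1a2 had a peak in all 6 libraries, and Adh1 in 1 of each treatment. Over all genes with a peak, 33.4% had it in more ethanol and 7.81% in fewer ethanol than saline libraries, and 50.2% had it in all 6. The number of the 10 genes with a peak was 6, 7 and 9 in ethanol libraries and 5, 5 and 7 in saline libraries, which overlap. None of the 10 had a peak in 3 of 3 ethanol and no saline libraries, against 1.32% of all genes with a peak, and none the reverse, against 0.0685%.

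No region of the 10 genes was specific to a treatment. All ethanol libraries and no saline library listed a peak at 0 of the 20 regions, against 1.49% of all regions, and the reverse at 0 of 20, against 0.108%. With so few regions and such low background shares, the counts of 0 do not set these genes apart. More ethanol than saline libraries had a peak at 12 regions and fewer at 1, against 51.8% and 14.7% of all regions. By a looser rule, like the last one chosen after the data were seen, 9 of the 20 regions were found in ethanol libraries only and 0 in saline libraries only, against 35.3% and 9.27% of all regions. Of these 9, those near the start of Aldh1a2, in Aldh2 and 90 kb before Aldh1a3 were in 2 ethanol libraries, and the other 6 were in 1. The 3 regions compare with 8.82% of all regions found in at least 2 ethanol and no saline libraries; the reverse was found at 0 of 20 and at 1.02% of all regions. With lists of equal length, 4 regions were found in ethanol libraries only and 3 in saline libraries only. The shares over all regions were not computed for those lists, so these counts have no background. The cut also set unlike thresholds. The smallest -log10 q kept was 15.2, 20.8 and 17.8 in ethanol replicates 1 to 3, against 5, 15.3 and 12.6 in saline replicates 1 to 3.

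At the 4 regions found in all 6 libraries, the height of the peak could be compared. Summit pileup was divided by the library's median over the 10276 regions shared by all 6 libraries, which was 58, 69.5 and 62 tags in ethanol replicates 1 to 3 and 49, 60 and 53 tags in saline replicates 1 to 3. The Adh5 region had a scaled pileup of 0.88, 1.01 and 1.10 in ethanol and 0.98, 0.77 and 1.06 in saline libraries, a log2 difference of 0.10 (exact permutation p = 0.6, 0.97 adjusted over all shared regions). The Adh7 region had 1.12, 1.15 and 0.90 in ethanol and 0.78, 1.28 and 1.13 in saline libraries (log2 difference 0.02, exact permutation p = 0.9, 0.994 adjusted). Neither was separated by treatment.

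The Aldh1a2 regions stood below the library median in every library. The first had 0.62, 0.89 and 0.71 in ethanol and 0.69, 0.83 and 0.75 in saline libraries (log2 difference -0.05, exact permutation p = 0.9, 0.994 adjusted). The second had 0.52, 0.79 and 0.44 in ethanol and 0.51, 0.70 and 0.62 in saline libraries (log2 difference -0.11, exact permutation p = 0.8, 0.987 adjusted). Both signs turned when pileup was left as deposited, with log2 differences of 0.18 and 0.12, or scaled to the background, with 0.10 and 0.04. In none of the 4 regions did the treatments fail to overlap, while over all shared regions 4.75% were higher and 5.66% lower in every ethanol than in every saline library. With 3 libraries a treatment, the exact permutation p cannot fall below 0.1, and the smallest adjusted value over all shared regions was 0.94. The test could therefore not show a difference of any size at a single region. Similar values do not show that methylation was equal.

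**Figure D4:**
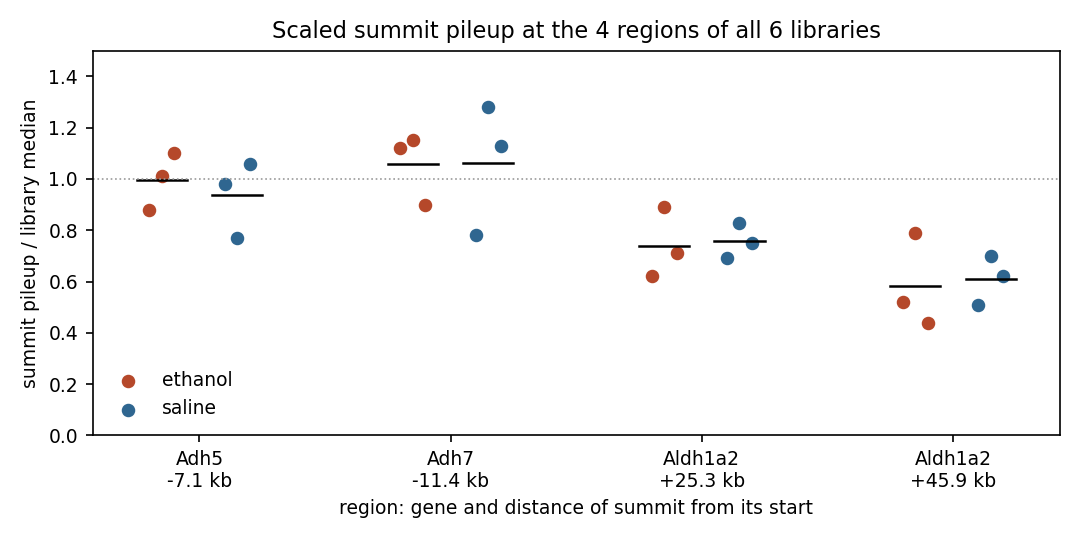
Summit pileup divided by the library's median over shared regions, at the 4 regions found in all 6 libraries; points are libraries, and black lines are treatment means. Ethanol and saline points interleave at each region, and both Aldh1a2 regions lie below 1, the library median (dotted).

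The regions of these genes were much like other methylated regions in sequence. The median CpG density was 2.56 per 100 bp over the 20 regions and 2.27 over all regions, and 11 of the 20 were above 2.27. The median soft-masked share was 40% and 44.9% in the same sets, and 7 of the 20 regions, or 35%, were more than 80% soft-masked, against 26.6% of all regions. The 4 regions found in all 6 libraries had a median of 3.32 CpG per 100 bp, against 3.46 for all regions of that kind, and the 6 found in a single library had 2.28, against 1.73. The 7 heavily masked regions were both of Adh5, the distal ones of Adh4 and Adh7, the Aldh1a1 region, the Aldh1a3 region 114 kb upstream and the Acss2 region. The labels do not say how reads matching several copies of a repeat were placed.

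**Figure D5:**
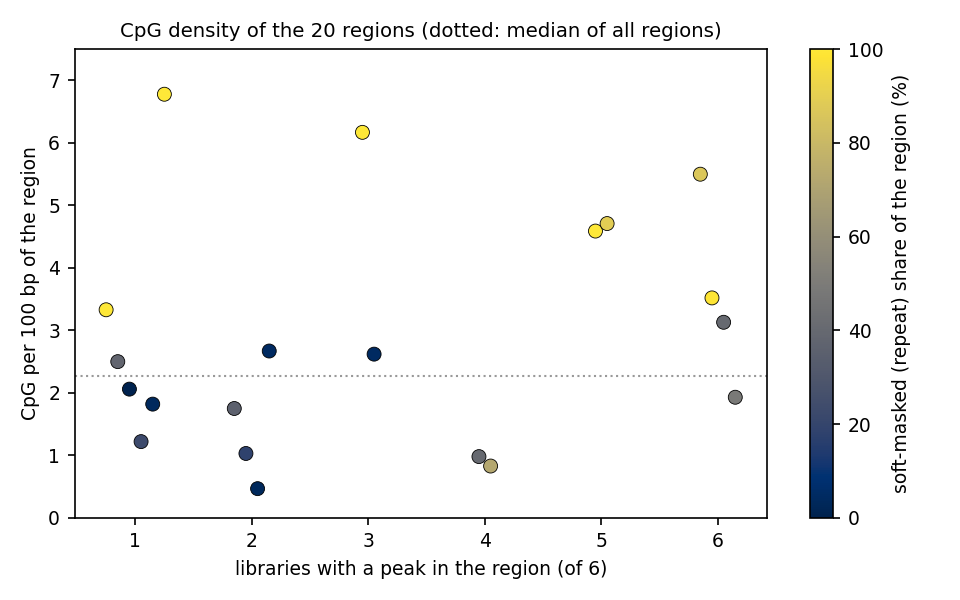
CpG per 100 bp of the 20 regions against the number of libraries with a peak in them; colour gives the soft-masked share, and the dotted line is the median of all regions, 2.27. Regions of the same number of libraries are spread sideways; dense and sparse regions occur both among those found in 1 library and among those found in several.

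Of 19 other alcohol and aldehyde dehydrogenase genes, 10 had a peak in any library and 6 of these had it in all 6 libraries, against 50.2% of all genes with a peak. A peak was found in more ethanol than saline libraries at 2 of the 10 and in fewer at 0, against 33.4% and 7.81% of all genes with a peak. In the cluster, Adh6a had a region at its 3′ end in all 6 libraries and another in all but saline replicate 1, which the authors annotated as intergenic to Adh6a and which lies inside Adh6b in the RefSeq table, within 2000 bp of its start. Aldh1a7, a close relative of Aldh1a1, had 0, 1 and 2 peaks in ethanol replicates 1 to 3 and no peak in the saline libraries. It was named after its values were seen and is among the 2 genes just counted. The share of all genes with peaks in ethanol libraries only was not computed. Aldh1l1, a folate enzyme used as an astrocyte marker, had the only peak of these genes that the authors classed as promoter, in 1 ethanol library. Aldh7a1, which degrades lysine, had the only treatment-specific region among the 30 regions of these genes, against 1.49% of all regions specific to ethanol. It was intergenic and 63.2 kb from the start, with a fold of 3.55 to 6.21 in the 3 ethanol libraries. Of 6 other enzymes of ethanol and acetate, Cyp2e1, Acss1 and Acss3 had peaks and Cat, which encodes catalase, had none, and each of the 3 had a peak in as many ethanol as saline libraries.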

How the data were processed

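MeDIP-seq peak lists of 3 ethanol and 3 saline hippocampi were analysed, each labelled with its animal's treatment. Per the series' design text, reads of 150 cycles were aligned to mm10 with Bowtie (Bowtie2 2.1.0 per the submitters' processing notes) and peaks were called per library with MACS version 2 at a q of 1e-4. Per the file headers, each peak has a summit pileup (signal, not scaled to depth), a fold enrichment (ratio to local background) and a q. The deposited q column holds -log10 q, with a minimum of 5 to 5.23. Other deposited values are the length and the distance to the start.

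A peak listed for several genes was counted once. Peaks of all libraries that shared at least 1 bp were merged to regions, and a library held a region if it had a peak there. A missing peak shows only that the threshold was not passed. For each single region the test was an exact permutation test, two-sided, over the 20 assignments of 6 libraries, with Benjamini-Hochberg adjustment over all 10276 regions of all 6 libraries. The planned tests of sums over the 10 genes were run, and their p-values are not printed. The code was tested on simulated data. The labels call the pups littermates without saying which belonged together, so p-values treat animals as independent. No 2 lists shared more than 0.0352% of peaks with identical ends. The sequence is GRCm38.p6, the assembly of mm10; peaks ended within its length on all 21 chromosomes compared. Features are from RefSeq and GENCODE M21, and 8 of 10 genes had a RefSeq promoter window.

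All 10 genes were named, and in the other lists those with a promoter peak or a treatment-specific region; Adh6a, Adh6b, Aldh1a7, Cyp2e1, Acss1, Acss3, Cat and Rarb were named after their values were seen. Genes and lists were chosen with earlier results of these data known. Python 3.11.15, numpy 2.4.6 and pandas 2.3.3 were used. Alternatives were a -log10 q of 10 or more, lists of equal length, 50% cover of a region, other scalings of pileup, a replicate block and leaving out each library.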

Additional observations from a re-analysis of the deposited data

How the results depend on the processing

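The excess of peaks after ethanol was lost when the lists were cut to equal length. The cut lists held 7, 7 and 7 peaks of the 10 genes in ethanol and 7, 7 and 8 in saline replicates 1 to 3. The negative sign for peaks thus rests on saline replicate 3 alone. With lists cut to 18922 peaks, the ethanol minus saline difference was -0.333 for the peaks of the 10 genes, against 4.67 as deposited, -0.333 for the genes with a peak, against 1.67, and -0.00176 percentage points for the share of all peaks, against 0.0057. Ethanol-only regions then numbered 4 and saline-only regions 3, against 9 and 0, without shares over all regions for the cut lists. At a -log10 q of 10 or more the 3 differences were 5.33, 2 and 0.00934. Leaving out 1 library gave 4 (without ethanol replicate 2 or 3) to 6 (without ethanol replicate 1) for peaks, 0.833 (without ethanol replicate 3) to 2.33 (without ethanol replicate 1 or saline replicate 3) for genes. The share ranged from 0.00314 without ethanol replicate 3 up to 0.0081 when saline replicate 3 was left out. Without 1 library there were 7 to 10 ethanol-only, 0 to 2 saline-only (2 without ethanol replicate 3), 0 to 2 ethanol-specific and 0 saline-specific regions. Shares over all regions were not computed with a library left out. The 2 regions called ethanol-specific without ethanol replicate 1 are those in Aldh2 and 3.32 kb upstream of Aldh1a2. The 1 so called without ethanol replicate 3 is that 90 kb upstream of Aldh1a3. In each case the library left out was the only ethanol library without a peak there, so the rule was met by construction.

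The small differences in scaled pileup changed sign readily. With pileup scaled to the background the log2 differences were 0.24 at Adh5, 0.16 at Adh7 and 0.10 and 0.04 at the Aldh1a2 regions, and with pileup as deposited they were 0.32, 0.24, 0.18 and 0.12, so that all 4 were above 0 under both. The Adh7 region had -0.0014 with lists of equal length, where the second Aldh1a2 region was no longer shared by all 6. Without 1 library they ranged from -0.05 to 0.19 at Adh5, -0.18 to 0.16 at Adh7, -0.19 to 0.07 at the first and -0.35 to 0.08 at the second Aldh1a2 region. No setting separated the treatments at any of these regions.

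Taking animals of the same replicate number as pairs (replicate block) leaves the mean differences unchanged by construction, at 4.67 peaks, 1.67 genes and 0.0057 percentage points. The SD of the paired differences was 1.53 peaks, 0.577 genes and 7.23e-04 percentage points. Same-numbered libraries did not deviate together (r of -0.172, -0.0295 and -0.0109 over 10276 regions), so the numbers were not taken as pairs.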

Other observations

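Genes that make, break down or bind retinoic acid, the pathway that the Aldh1a enzymes feed, were also looked at. Of 14 such genes, 12 had a peak in any library and 4 in all 6 libraries. A peak was found in more ethanol than saline libraries at 7 of the 12 and in fewer at 1, against 33.4% and 7.81% of all genes with a peak. List length was not equalised here, and the lists as a whole were 1.39 times as long after ethanol. Rarb, which encodes a retinoic acid receptor, was named after its values were seen. It had 6, 11 and 10 peaks in ethanol replicates 1 to 3 and 2, 5 and 8 peaks in saline replicates 1 to 3. Cyp26b1, whose enzyme degrades retinoic acid, had 8, 8 and 8 peaks in ethanol libraries and 7, 7 and 5 in saline libraries. It held the only treatment-specific region among the 54 regions of these genes, against 1.49% of all regions specific to ethanol, 282 kb from the start (chromosome 6, 84311880 to 84312525), with a fold of 6.53 to 8.73 in the 3 ethanol libraries. Cyp26c1, from the same enzyme family, had the only region of these genes that the authors classed as promoter, in 2 ethanol libraries and 1 saline library.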
